A study of Mus musculus with 8 samples.

Results

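Heparan sulfate is a linear sugar chain carried by core proteins at the cell surface and in the matrix, and the 10 genes described here encode enzymes that build and sulfate it. The 10 are Ext1 and Ext2, Ndst1 to Ndst4, Hs2st1, and Hs6st1 to Hs6st3, out of 23284 genes listed for each library, and they were found by gene symbol. The family was chosen by a measured value, the lower count of Ndst3 in the libraries labelled ErbB4 KO, so the difference of Ndst3 between the groups is given below as a description with no test. All 10 genes passed the filter on low counts that left 14696 genes in the test.

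The libraries are poly(A) RNA-seq of mouse dorsal cortex at E15.5 (embryonic day), with meninges and ganglionic eminences removed, from 4 wild-type embryos (WT) and 4 embryos of genotype ErbB4 -/- (KO), all labelled C57BL/6. ErbB4 is a receptor tyrosine kinase for neuregulins. The study asked which genes of the embryonic cortex respond to loss of the receptor. The ErbB4 -/- mice carry a transgene that expresses ErbB4 in heart muscle from the alpha-MHC promoter, which lets them survive. Wild-type and mutant mice were bred apart, each line homozygous, so differences between the colonies at other loci cannot be told apart from the genotype. Litters are not named, and the p-values measure only the spread between these 8 libraries.

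Several facts of the whole series touch the values below. The libraries held 28205703 to 48871480 counts assigned to genes. Erbb4 mRNA itself was not lower in the libraries labelled KO, at 20.9, 24.6, 20.7 and 23.5 CPM (gene counts scaled to a common library size) in KO 1 to KO 4 against 8.99, 19.9, 25.3 and 19.2 in WT 1 to WT 4 (edgeR adjusted p = 0.812), so the directions below are those of the libraries as labelled; the count covers the whole gene and cannot show the loss of a part of it. WT 1, WT 2 and WT 3 had 983 to 1687 CPM of Xist, the RNA of the inactive X chromosome, whereas WT 4 and all KO libraries had 2.70 to 3.82. As WT 4 alone of the WT libraries matches the KO libraries, differences tied to Xist or to sex can hardly be told apart from the genotype. WT 1 stood apart from the other 7 libraries, at -38.9 on the first principal component, where the next lowest was WT 3 at -6.07. The deviation of a gene in WT 1 from the other libraries was lower the longer its longest transcript (Spearman's rho = -0.580 across 14253 genes, as a description), against 0.0378 to 0.223 in the other libraries, and the part of this in the low WT 1 values given below was not tested. The summed dorsal cortex markers were at 5293 to 6039 CPM in WT and 5342 to 5687 CPM in KO, with all 10 detected, and the summed ganglionic eminence markers at 583 to 766 and 567 to 769 CPM. Red blood cell markers were at 33.2 to 58.1 CPM in WT and 23.2 to 36.7 CPM in KO, with Hba-a1, Hba-a2 and Hbb-b2 listed at 0, and their part in the differences below was not tested. In edgeR none of the markers of cortex, ganglionic eminence, meninges, vessels, microglia or red blood cells passed the test, while at an unadjusted p under 0.05 there were 2 of 10 cortex, 1 of 10 ganglionic eminence and 2 of 5 tested red blood cell markers and 0 of the other lists, against 5.53% of all genes.

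Synthesis of heparan sulfate starts on a linker of sugars attached to the core protein, and the EXT1 and EXT2 proteins together extend the chain by adding glucuronic acid and N-acetylglucosamine in turn. NDST enzymes then remove acetyl groups from N-acetylglucosamine and put sulfate in their place, and this step opens the chain to later ones: epimerization of glucuronic acid, 2-O-sulfation by HS2ST1 and 6-O-sulfation by the HS6ST enzymes. The resulting patterns of sulfate bind FGFs, Slits and other ligands, and in the developing cortex they take part in growth factor signalling, patterning and axon guidance.

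The sequences just upstream of the RefSeq starts of Ndst3 are shown because it is the member with the large difference between the groups. That of Hs6st1 is shown because it is the member richest in CpG among those with a window. The 250 bases before each start come from RefSeq (GRCm38.p6), in which 7 of the 10 genes have a window, and each window was found once, without mismatch, in mm9, the build of the count files. Lower case is used throughout except for CpG dinucleotides, which are in capitals, and each line reads 5′ to 3′ on the strand of the gene.

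Ndst3 start 1: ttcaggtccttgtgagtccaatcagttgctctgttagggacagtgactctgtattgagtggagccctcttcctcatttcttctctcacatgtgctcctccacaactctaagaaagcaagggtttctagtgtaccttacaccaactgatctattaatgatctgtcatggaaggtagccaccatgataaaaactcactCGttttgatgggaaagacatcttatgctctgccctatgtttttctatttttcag

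Ndst3 start 2: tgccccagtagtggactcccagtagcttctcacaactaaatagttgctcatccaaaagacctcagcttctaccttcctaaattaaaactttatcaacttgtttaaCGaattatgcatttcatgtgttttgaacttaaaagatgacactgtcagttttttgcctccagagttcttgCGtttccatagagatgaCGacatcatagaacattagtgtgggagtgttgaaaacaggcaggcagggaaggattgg

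Hs6st1: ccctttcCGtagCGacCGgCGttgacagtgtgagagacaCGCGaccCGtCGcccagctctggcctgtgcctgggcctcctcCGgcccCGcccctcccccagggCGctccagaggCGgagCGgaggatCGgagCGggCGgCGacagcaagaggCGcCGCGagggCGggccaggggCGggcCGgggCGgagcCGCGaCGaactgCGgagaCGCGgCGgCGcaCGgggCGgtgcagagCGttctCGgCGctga

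The first Ndst3 window lies at chr3:123672478-123672727 in GRCm38.p6 and chr3:123375396-123375645 in mm9, and the second at chr3:123619451-123619700 and chr3:123322369-123322618, all on the minus strand. The Hs6st1 window lies at chr1:36068150-36068399 in GRCm38.p6 and chr1:36124995-36125244 in mm9, on the plus strand. The Ndst3 windows hold 1 and 3 CpG and are 42.4% and 40.4% G or C, and 18.8% and 37.8% of the 32851 RefSeq windows of the same length hold no more CpG than these. Hs6st1 holds 37 CpG, Hs6st3 36, Hs2st1 21, Ndst2 15, Ext2 12, and the 2 starts of Hs6st2 7 and 26, against a median of 6 over all windows. The letters GGGCGG or their reverse complement CCGCCC occurred 6 times in the Hs6st1 window, 3 times for Ndst2 and 1 time for Hs2st1, and in 32.7% of all windows. They were not found in either Ndst3 window, nor in the windows of Ext2, Hs6st3 and Hs6st2, which says only that these letters are not there. The letters TATAAA or TTTATA occurred in the first Hs6st2 window and in 12.4% of all windows. In GENCODE the Ndst3 gene begins 18375 and 71402 bases upstream of these RefSeq starts, so both windows lie inside the annotated gene, and a GENCODE transcript begins 85 bases from the first start and another at the second. The RefSeq start of Ndst2 lies outside the annotated gene, 4018 bases from the nearest start of a GENCODE transcript. Gene counts sum over all starts, so the values below do not separate them.

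The chain polymerase genes Ext1 and Ext2 varied little over the 8 libraries. Ext1 (chr15:52895593-53177714 in mm9, minus strand) was at 49.7, 54.4, 57.9 and 52.1 CPM in WT 1 to WT 4 and at 53.3, 52.1, 57.4 and 55.3 CPM in KO 1 to KO 4. Ext2 (chr2:93535788-93662725, minus strand) was at 59.1, 53.6, 58.8 and 57.5 CPM in WT and 59.7, 55.3, 61.6 and 57.6 CPM in KO. The groups overlapped for both genes, and neither passed the test. The log2 fold change of KO over WT was 0.03 for Ext1 (95% interval -0.11 to 0.17, edgeR adjusted p = 0.931). For this gene it was -0.0064 without WT 1 and 0.077 with Xist as a covariate. For Ext2 it was 0.03 (-0.10 to 0.17, edgeR adjusted p = 0.906) and 0.0030 without WT 2.

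**Figure D1:**
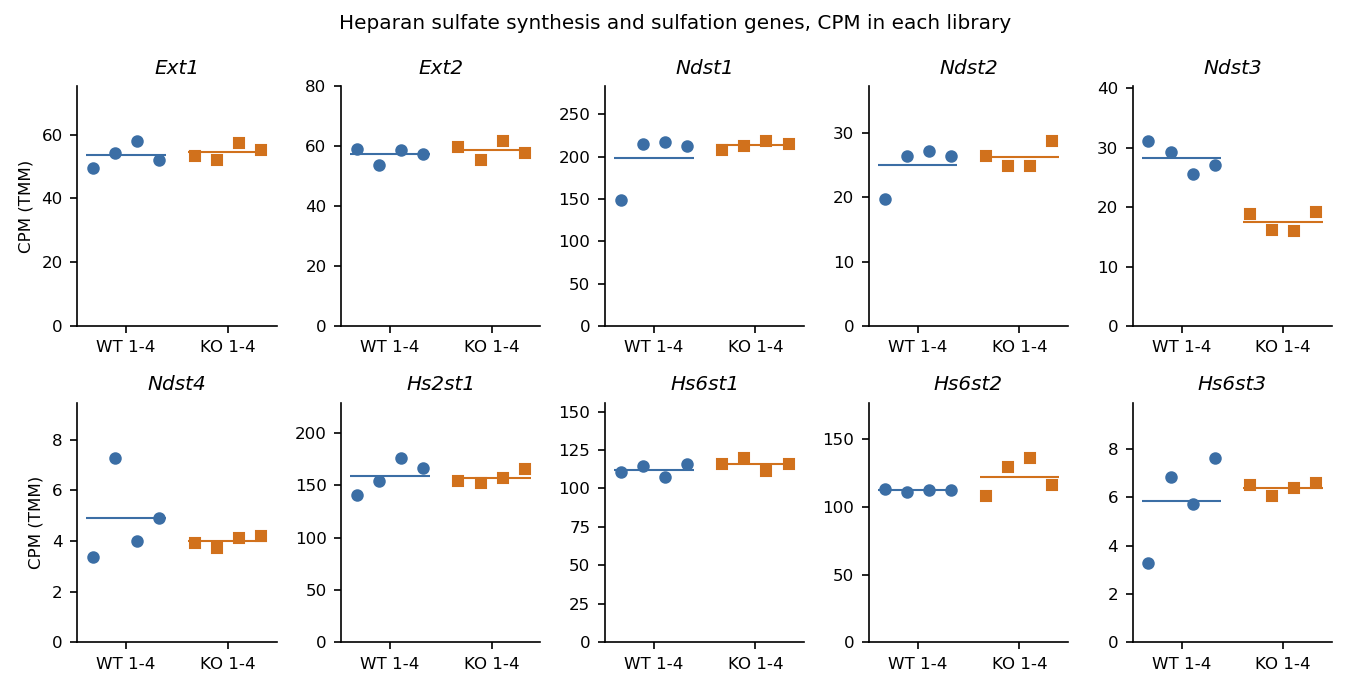
CPM of the 10 genes in each library (vertical axes from 0, each gene on its own scale), with WT 1 to WT 4 as blue circles and KO 1 to KO 4 as orange squares from left to right, and group means as lines. The groups are apart for Ndst3 (25.5 to 31.1 CPM in WT, 16.0 to 19.2 in KO) and overlap for the other 9 genes, and WT 1 is the lowest library for Ext1, Ndst1, Ndst2, Ndst4, Hs2st1 and Hs6st3.

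Of the N-deacetylase/N-sulfotransferase genes, Ndst3 was lower in the libraries labelled KO. Ndst3 (chr3:123229084-123393770, minus strand) was at 31.1, 29.2, 25.5 and 27.1 CPM in WT 1 to WT 4, from 871 to 980 counts in each. It was at 18.9, 16.1, 16.0 and 19.2 CPM in KO 1 to KO 4, from 560 to 932 counts. Every KO library was below every WT library, and counting error alone was 3.19% to 4.23% of a value. The mean was 28.2 ± 2.41 CPM in WT and 17.5 ± 1.75 CPM in KO (SD, n = 4 each), which is 37.9% lower and a log2 fold change of -0.69 (SE 0.092). As this value was selected on, it carries no test. Across all other ways of computing it that were tried, the log2 fold change lay between -0.73 and -0.63, with -0.63 when WT 4, the WT library with low Xist, was set alone against the 4 KO libraries and -0.64 without WT 1. In bulk tissue, fewer cells that express a gene and less RNA per cell cannot be told apart.

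The other members of the NDST family did not pass the test. Ndst1 (chr18:60845632-60908304, minus strand), the broadly expressed member, was at 149, 215, 217 and 213 CPM in WT and 208, 213, 218 and 215 CPM in KO. WT 1 was far below the rest and the other 7 libraries lay between 208 and 218. The log2 fold change was 0.11 (-0.12 to 0.33, edgeR adjusted p = 0.829) and -0.010 without WT 1. Ndst2 (chr14:21542952-21549766, minus strand), best known for its role in mast cell heparin, was at 19.8, 26.5, 27.2 and 26.4 CPM in WT and 26.4, 24.9, 24.9 and 28.7 CPM in KO. WT 1 was again the lowest library, and the groups overlapped otherwise. Its log2 fold change was 0.07 (-0.16 to 0.29, adjusted p = 0.881) and -0.027 without WT 1.

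Ndst4 (chr3:125107009-125427904, plus strand) had the lowest level per length in the family and lies 1.71 Mb from Ndst3 on the same chromosome. Its values were 3.39, 7.28, 4.01 and 4.93 CPM in WT and 3.92, 3.73, 4.12 and 4.19 CPM in KO. The KO libraries all lay inside the WT range, whose upper end was WT 2. The log2 fold change was -0.30 (-0.74 to 0.15, edgeR adjusted p = 0.810), -0.047 without WT 2 and -0.43 without WT 1. With 95 to 227 counts per library, the interval reaches past the fold change of Ndst3, so a fold change as large as that of Ndst3 lies within what these data allow for Ndst4.

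Hs2st1, which encodes the single 2-O-sulfotransferase of the chain, was among the highest members per length and did not pass the test. Hs2st1 (chr3:144094067-144233145, minus strand) was at 141, 154, 176 and 166 CPM in WT and 154, 152, 157 and 166 CPM in KO. The KO libraries lay within the WT range. For Hs2st1 the log2 fold change was -0.02 (-0.17 to 0.13, edgeR adjusted p = 0.954), and its sign turned without WT 3 or WT 4.

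The 6-O-sulfotransferases also did not pass the test. Hs6st1 (chr1:36125245-36163291, plus strand) was at 111, 115, 107 and 116 CPM in WT and 116, 119.9, 111 and 116 CPM in KO, and had the narrowest interval of the 9 tested (log2 fold change 0.04, -0.07 to 0.16, edgeR adjusted p = 0.850). That log2 fold change was 0.023 without WT 3, -0.0023 with Xist as a covariate and -0.0036 with WT 4 alone as WT. Hs6st2 (chrX:48740389-49035033, minus strand) was at 113, 111, 112 and 112 CPM in WT and 108, 129, 136 and 116 CPM in KO. The coefficient of variation over its WT libraries was 0.783%, while KO 2, KO 3 and KO 4 were above every WT library and KO 1 was below. For Hs6st2 the log2 fold change was 0.12 (-0.03 to 0.28, adjusted p = 0.810), 0.068 without KO 3 and 0.18 without KO 1; it was 0.12 when WT 4 alone, the WT library that matches the KO libraries in Xist, stood for WT. Hs6st3 (chr14:119537637-120268816, plus strand) was at 3.28, 6.83, 5.71 and 7.64 CPM in WT and 6.50, 6.06, 6.38 and 6.61 CPM in KO, with WT 1 lowest. Its log2 fold change was 0.12 (-0.32 to 0.56, adjusted p = 0.900) and -0.26 when WT 4 alone stood for WT.

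Of the 9 members other than Ndst3, 0 passed an adjusted p of 0.05 in edgeR, where 4 of all 14696 genes did (0.0272%). Likewise 0 passed in limma-voom, which called 4 genes (0.0272%), and 0 in DESeq2, which called 23 of 16682 (0.138%). At an unadjusted p under 0.05 the count was again 0 of 9 in edgeR, against 812 genes (5.53%) in all. The groups overlapped for all 9, while they did not for 491 genes (3.34%). The log2 fold changes were above 0 for 7 of the 9 and below 0 for 2 (3 and 6 without WT 1, 4 and 5 with WT 4 alone as WT), with a median of 0.04 against -0.0022 over all genes. The 95% intervals of the 9 ran from -0.74 to 0.56 at their outer ends, so these data bound the differences rather than show equality.

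**Figure D2:**
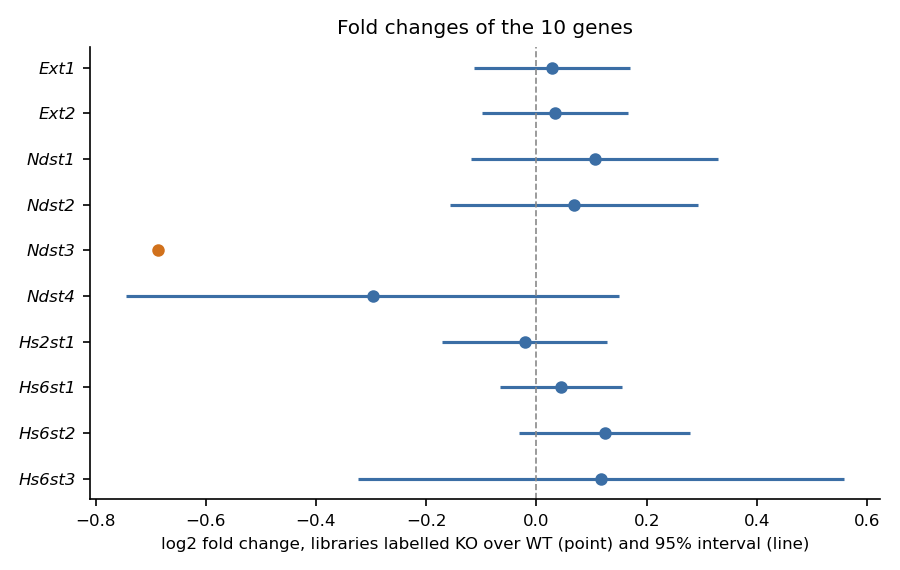
Log2 fold change of KO over WT for the 10 genes (points) with 95% intervals from the edgeR fit (lines, blue), Ndst3 in orange as a point only because the family was chosen by its value. The 9 blue intervals all include 0, and Ndst3 lies at -0.69.

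Levels of different genes can be compared per length, as CPM per kb of annotated exon. In WT the highest were Hs2st1 at 32.4 ± 3.12, Hs6st1 at 30.2 ± 1.04 and Ndst1 at 30.1 ± 5.04 CPM per kb (mean ± SD, n = 4), and the ranges of these 3 overlapped. Hs6st2 followed at 14.4 ± 0.112 and Ext2 at 8.58 ± 0.378, each apart from its neighbours in the order. Ndst2 at 7.07 ± 0.987 and Ext1 at 6.62 ± 0.433 overlapped. Ndst3 at 4.57 ± 0.391 and Hs6st3 at 4.15 ± 1.34 overlapped too, and Ndst4 was lowest at 0.630 ± 0.219. In KO the order was the same except at these levels: Ndst1 was at 32.4 ± 0.656, Hs2st1 at 32.0 ± 1.20 and Hs6st1 at 31.1 ± 0.943, again overlapping, and Ndst3 at 2.84 ± 0.282 lay below Hs6st3 at 4.52 ± 0.167 without overlap. Part of the WT order rests on WT 1, where Ndst1 was at 22.5 and Hs6st3 at 2.32 CPM per kb. Without WT 1 the WT mean of Ndst1 lies above that of Hs6st1, and that of Hs6st3 above that of Ndst3. The annotated length of Hs6st3 is 1413 bases, the shortest of the 10, and a longer transcript would lower its value. With the longest transcript in place of all exons, Ext2 came to 15.4 and Hs6st2 to 25.8 CPM per kb in WT, and the order changed only between Ndst1 and Hs6st1 in WT.

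The make-up of the NDST mRNAs followed from these levels. Ndst3 made up 11.1% ± 2.65 of the summed NDST CPM per kb in WT (range 9.13% to 14.97%) and 6.57% ± 0.607 in KO (5.97% to 7.20%; SD, n = 4 each). The highest WT share was that of WT 1, where Ndst1 was low. Ndst1 made up 70.8% ± 2.55 in WT and 75.0% ± 1.48 in KO, Ndst2 16.7% and 17.2%, and Ndst4 1.47% and 1.19%. The 4 genes together came to 42.3 ± 5.85 CPM per kb in WT and to 43.1 ± 0.904 in KO. WT 1 was at 33.6, while WT 2, WT 3 and WT 4 were at 45.7, 45.3 and 44.8, each above the KO range of 42.4 to 44.4. The lower WT mean thus rests on WT 1 alone. Because Ndst3 chose the family, these shares are descriptions. Among the 6-O-sulfotransferases, Hs6st1 made up 62.0% in WT and 60.7% in KO, Hs6st2 29.6% and 30.5%, and Hs6st3 8.46% and 8.83%. The Hs6st3 share was 4.98% in WT 1 and 9.71%, 8.55% and 10.6% in WT 2 to WT 4, so its lower WT mean rests on WT 1.

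**Figure D3:**
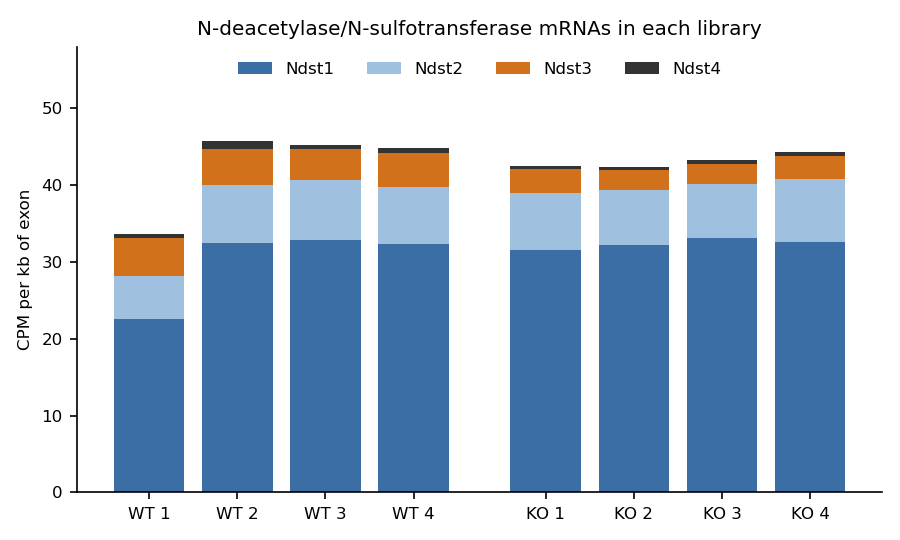
CPM per kb of exon of the NDST genes in each library, stacked, with Ndst1 dark blue, Ndst2 light blue, Ndst3 orange and Ndst4 black. Ndst1 is the largest part in every library, the Ndst3 part is 9.13% to 14.97% of the bar in WT and 5.97% to 7.20% in KO, and WT 1 has the shortest bar at 33.6.

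To see whether other steps of the pathway differed, 84 further genes in 10 lists were read from the same fit, of which 79 were tested. In edgeR, DESeq2 and limma-voom, 0 of the 79 passed the adjusted threshold. At an unadjusted p under 0.05 there were 7, which is 8.86% against the 5.53% of all genes, with 5 higher and 2 lower in KO. The log2 fold change was above 0 for 41 and below 0 for 38, with a median of 0.01. Not tested for low counts were Hs3st6, Hpse2, Slc35d2, Fgf2 and Chst13, the last with 0 counts in every library.

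In the list of linker enzymes, which make the sugar stub on the core protein, Xylt1 had the highest and Acpl2 the lowest log2 fold change. Xylt1, a xylosyltransferase that starts the linker, was at 5.28, 9.08, 9.93 and 11.1 CPM in WT and 8.26, 11.0, 11.5 and 12.3 CPM in KO (0.28, edgeR adjusted p = 0.810), again with WT 1 lowest and 0.097 without it. Acpl2, the older symbol of the xylose phosphatase gene Pxylp1, was at 40.5, 41.9, 41.5 and 37.0 CPM in WT and 37.3, 32.8, 34.7 and 37.5 CPM in KO (-0.18, adjusted p = 0.810), and its log2 fold change was -0.057 both with Xist as a covariate and with WT 4 alone as WT. Of the relatives of the polymerases, Extl3 had 0.11 (edgeR adjusted p = 0.810). Its log2 fold change was 0.039 without WT 1, 0.022 with Xist as a covariate and 0.0049 with WT 4 alone as WT. Extl1, at 1.38 CPM in WT, had -0.04 (edgeR adjusted p = 0.981), with -0.47 with Xist as a covariate and -0.48 with WT 4 alone as WT. Glce, the epimerase that acts before 2-O-sulfation, had 0.14 (adjusted p = 0.810), and it too was lowest in WT 1, with 0.063 without that library.

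The 3-O-sulfotransferases, which make the rarest modification of the chain, had 6 tested genes, of which 2 were at an unadjusted p under 0.05 (33.3% against 5.53% of all genes). Hs3st5 was at 7.38, 7.41, 6.91 and 6.70 CPM in WT and 8.53, 10.2, 8.48 and 8.32 CPM in KO (0.32, 95% interval 0.10 to 0.55, edgeR adjusted p = 0.810). Its groups did not overlap, and KO 2 was the highest. Hs3st4 was at 67.7, 63.8, 56.3 and 59.3 CPM in WT and 73.2, 79.4, 76.9 and 65.5 CPM in KO (0.26, adjusted p = 0.810), and its groups overlapped. Hs3st3b1 went the other way, at 13.8, 13.8, 9.10 and 11.9 CPM in WT and 8.77, 8.82, 11.3 and 10.8 CPM in KO (-0.29, adjusted p = 0.810). None of the 6 passed the adjusted threshold. The log2 fold change was above 0 for 3 and below 0 for 3, with a median of 0.016. Hs3st4, and the genes Ids and Sdc3 below, were not extremes of their lists and are named because their unadjusted p was under 0.05, a choice made after their values were seen.

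In the list of extracellular editing, Sulf1, which removes 6-O-sulfate at the cell surface, rested on a single library. It was at 5.28, 9.82, 13.1 and 9.03 CPM in WT and 10.8, 8.47, 40.5 and 7.88 CPM in KO, so that KO 3 alone was high. Its log2 fold change was 0.86 (-0.20 to 1.92, edgeR adjusted p = 0.810) and -0.038 without KO 3. The summed meningeal markers were also highest in KO 3, at 21.2 CPM against 12.7 to 16.0 in the other 7 libraries, with Col1a2 at 6.56 against 1.82 to 3.08 CPM and 3 of the 8 markers under 1 CPM in every library. Their part in the Sulf1 value was not tested. Hpse, the heparanase that cuts the chain, was under 1 CPM in every library (-0.14, edgeR adjusted p = 0.921), and the sign of its log2 fold change depended on the library left out.

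None of the genes of supply, core proteins and degradation passed the test. Among the genes of sulfate donor and sugar nucleotide supply, the extremes were Slc35a3 at 0.22 (edgeR adjusted p = 0.810, and 0.11 without WT 1) and Slc35b3 at -0.10 (adjusted p = 0.818, and -0.057 without WT 2), both transporters of the Golgi. Of the 14 core proteins, the extremes were Tgfbr3 at 0.34 (adjusted p = 0.810) and Col18a1 at -0.18 (adjusted p = 0.810). Tgfbr3 was at 0.57 without WT 2 and 0.21 without KO 1, and Col18a1 at -0.094 without KO 2. Sdc3, the syndecan abundant in neurons, was at 475, 544, 473 and 528 CPM in WT and 577, 580.5, 550.3 and 526 CPM in KO (0.14, adjusted p = 0.810). Among lysosomal enzymes that break the chain down, Arsg was at 2.78, 2.60, 2.19 and 2.17 CPM in WT and 2.92, 3.10, 6.61 and 2.76 CPM in KO (0.67, adjusted p = 0.810), with KO 3 far above the rest and a log2 fold change of 0.27 without it. Ids, an X-linked sulfatase, was at 278, 337, 338 and 319 CPM in WT and 358, 372, 356 and 345 CPM in KO (0.17, edgeR adjusted p = 0.810). WT 1 was its lowest library, and the size of this log2 fold change rests partly on WT 1. Naglu had -0.14 (edgeR adjusted p = 0.829) and -0.069 without WT 4.

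Of 13 tested ligands and receptors that bind heparan sulfate, Fgf18, a growth factor, was at 4.85, 4.04, 3.23 and 4.16 CPM in WT and 3.39, 2.79, 3.25 and 2.80 CPM in KO (-0.40, 95% interval -0.74 to -0.07, edgeR adjusted p = 0.810). Slit3, an axon guidance ligand, was at 5.14, 10.04, 8.84 and 10.3 CPM in WT and 11.1, 13.4, 10.4 and 9.75 CPM in KO (0.38, adjusted p = 0.810), with WT 1 lowest and 0.21 without it. The groups overlapped for both. The 15 tested enzymes of chondroitin sulfate, the related chain that shares the linker, had a median of 0.03, from Dsel at -0.12 to Csgalnact1 at 0.23, and 0 of 15 were at an unadjusted p under 0.05, where 5.53% of all genes were. Without WT 3, Dsel was at -0.071.

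**Figure D4:**
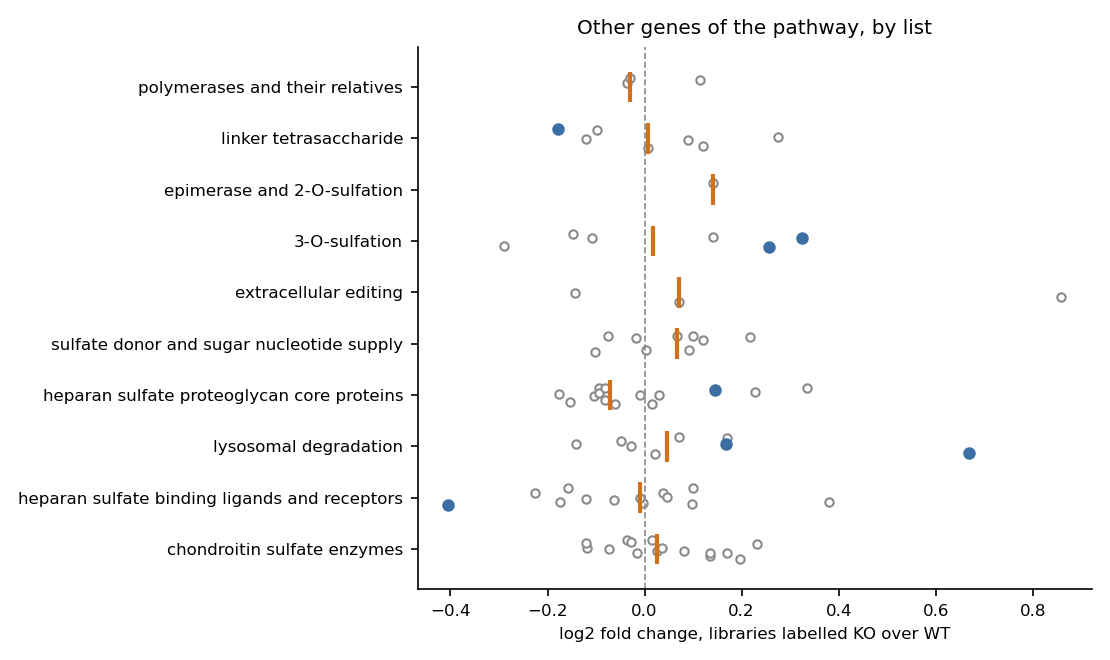
Log2 fold change of KO over WT for the 79 tested pathway genes other than the members (one circle each, spread vertically for legibility), with list medians as orange bars and the 7 genes at an unadjusted p under 0.05 filled blue. None of the circles passed the adjusted threshold, and the rightmost circle, Sulf1 at 0.86, is at -0.038 without KO 3.

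Ndst3 was also looked at beside its neighbours on chromosome 3. Of the 10 tested genes within 1 Mb of it, 0 passed the adjusted threshold in edgeR or limma-voom and 1, Prss12, did in DESeq2, and 5 had an unadjusted p under 0.05 (50% against 5.53% of all genes). For 4 of the 10 the groups did not overlap (40.0% against 3.34%). Prss12, which encodes a secreted serine protease of neurons, is the nearest, 19.6 kb from Ndst3, so that no tested gene overlaps it. Prss12 was at 8.77, 16.1, 13.0 and 15.3 CPM in WT and 22.9, 21.9, 22.5 and 23.0 CPM in KO, opposite in direction to Ndst3, with a log2 fold change of 0.76 (95% interval 0.44 to 1.09, edgeR adjusted p = 0.469). It passed with an adjusted p of 0.0310 without WT 1 and with 0.000988 in DESeq2, and over all alternatives the adjusted p ran from 0.000988 to 1.000.

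Of the other 4 neighbours at an unadjusted p under 0.05, 2 were higher and 2 lower in the KO libraries. Bcar3, a signalling adaptor, was at 4.92, 4.62, 4.12 and 4.44 CPM in WT and 6.01, 5.86, 5.89 and 6.00 CPM in KO (0.39), and Synpo2, an actin-binding protein, had 0.40 with overlapping groups. Sec24d, a coat protein of vesicles leaving the endoplasmic reticulum, was at 29.0, 30.2, 26.8 and 31.3 CPM in WT and 24.1, 24.1, 25.2 and 25.4 CPM in KO (-0.25). Mettl14, a subunit of the RNA m6A methyltransferase, was at 44.4, 38.4, 42.5 and 40.1 CPM in WT and 36.6, 34.0, 35.3 and 37.0 CPM in KO (-0.21). The edgeR adjusted p was 0.810 for each of these 4. Log2 fold changes of the remaining neighbours were 0.23 for Usp53, 0.18 for Pde5a, 0.05 for Fnbp1l, -0.09 for Tram1l1 and -0.22 for 1810037I17Rik, all with overlapping groups. Without WT 1 they were 0.11, 0.075, 0.029, -0.038 and -0.042 in the same order, each smaller by over 1.5 times. With Xist as a covariate, or with WT 4 alone set against the KO libraries, the contrast rests mostly or wholly on 1 WT library. The count at an unadjusted p under 0.05 was 2 with the covariate, with less precision behind it than the 5. The share of all genes with the covariate is not given here, so this count says little about stability. The log2 fold changes in these settings were 0.59 and 0.56 for Prss12, 0.41 and 0.42 for Bcar3, 0.093 and 0.085 for Synpo2, -0.34 and -0.34 for Sec24d, and -0.18 and -0.17 for Mettl14, so that Synpo2 alone of the 5 moved by over 1.5 times.

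Within 10 Mb of Ndst3, a window chosen after the nearer values were seen, 18 of 82 tested genes had an unadjusted p under 0.05 (22%), 12 of them higher and 6 lower in KO. Over the rest of chromosome 3 the count was 34 of 614 (5.54%). The same window gave 19 of 87 (21.8%) around Ndst4, with Ndst3 left out, and shares most of these genes. It gave 11.8% around Hs2st1, on the same chromosome, 8.75% around Hs6st1, and 1.08% to 5.95% around the other 6 members. With Xist as a covariate, which leaves the contrast mostly to WT 4, the count near Ndst3 was 5 of 82. The share over the rest of chromosome 3 in that setting is not given here, so this count cannot be set against the 5.54%. Genes of a region are not independent of each other, and no test of the region was made.

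The genes whose levels followed Ndst3 most closely over the 8 libraries, by Pearson's r of log2 CPM and given as a description, were Hist1h3c (0.964), 1810062O18Rik (0.963), Preb (0.962), BC017612 (0.957) and Lancl1 (0.955). None lies on chromosome 3. Lancl1 (chr1:67047091-67085446) lies on the chromosome of Erbb4 (chr1:68078760-69154633). As these genes were picked by their likeness to Ndst3, no test of them is given. Because Ndst3 separates the groups, any gene that does so with a small spread will rank high. Lancl1, which encodes a glutathione-binding protein, was at 116, 99.8, 101 and 102 CPM in WT and 78.4, 78.0, 76.5 and 76.9 CPM in KO, while Preb differed much less, at 92.5, 90.6, 88.3 and 91.7 CPM in WT and 87.1, 84.8, 84.7 and 86.9 CPM in KO. Hist1h3c and 1810062O18Rik were under 1 CPM in every library.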

How the data were processed

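RNA of 8 embryonic cortices was sequenced by the authors as poly(A)-selected, non-strand-specific, single-end libraries, aligned with HISAT to mm9 and counted with HTSeq; the versions, the annotation and the handling of reads that match several genes are not given in the sources used here. The deposited values were raw counts per gene symbol, with no normalization by the authors, 28205703 to 48871480 per library, which gives a counting error of 3.19% to 4.23% for Ndst3 and up to 10.4% for Hs6st3. The authors' own table of comparisons (fold changes and p-values from DESeq2) was not used.

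Counts were tested with edgeR 4.0.16 (R 4.3.3; TMM, filterByExpr with a minimum count of 10 and total of 15, quasi-likelihood F test, Benjamini-Hochberg over 14696 genes), KO against WT, 4 libraries each, with no covariate. CPM used TMM-scaled library sizes and log2 CPM a prior count of 2. Alternatives were DESeq2 1.42.0, limma-voom (limma 3.58.1), DESeq2 size factors, no TMM, no filter, a replicate block, Xist as a covariate, the low-Xist libraries alone, and leaving out each library. On data simulated for KO against WT with 14588 genes, the edgeR test recovered 77 of 100 genes with small and 95 of 100 with large changes, with 9 false calls. Even the small changes were larger than the log2 fold change of any tested member. Counts were drawn gene by gene, without the shared deviation of WT 1. The recovery thus does not tell how often changes of the size seen in the members would be found. Positions and exon lengths came from GENCODE vM1 on mm9.

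The 10 members, the 10 pathway lists and the markers were chosen with earlier results of these data known. Named are all members, in each list any gene past the threshold and the genes with the highest and lowest log2 fold change, the tested genes within 1 Mb of Ndst3, the 5 genes most like it, and Erbb4 and Xist as checks; exceptions are stated.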

Additional observations from a re-analysis of the deposited data

Results flagged for a closer look

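In 78 groups of 4 libraries (members, named pathway genes and neighbours of Ndst3, in WT and in KO), 8 held a library far from the other 3. Chance would flag about 1 in 20 independent groups, but these groups share libraries. The named pathway genes were also extremes of their lists, which 1 far library can produce. The 8 therefore cannot be set against that rate. Of the 8, 4 were in WT 1: Ndst1 at 149 CPM against 213 to 217 in the other WT libraries, Ndst2 at 19.8 against 26.4 to 27.2, Slc35a3, a sugar nucleotide transporter, at 11.5 against 15.8 to 16.3, and Usp53, a neighbour of Ndst3, at 4.99 against 7.35 to 7.64. In KO 3, Sulf1 was at 40.5 CPM against 7.88 to 10.8 in the other KO libraries, Arsg at 6.61 against 2.76 to 3.10, and the Ndst3 neighbour 1810037I17Rik at 23.0 against 19.3 to 19.4. In KO 2, Hs3st5 was at 10.2 CPM against 8.32 to 8.53. Ndst3 itself had no such library in either group.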

How the results depend on the processing

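None of the 9 members other than Ndst3, and none of the 79 pathway genes, passed the threshold under any alternative run. The number of all genes called was 4, and 23 with DESeq2, 1 with DESeq2 size factors, 1 with Xist as a covariate, 1 with the low-Xist libraries alone, and 1 to 13 when a library was left out (13 without WT 4, 6 without WT 1, 2 without WT 2 or KO 4, 1 without any other); the cause was not tested. With a replicate block 1 gene was called. Deviations of same-numbered libraries had correlations of 0.0236 to 0.135 over genes, 1 of 4 above 0.1, and not every library correlated best with its own number (WT 3 did so with KO 4, at 0.154), so the numbers were not taken as pairs. Near Ndst3 the 1 Mb count of 5 was 2 with Xist as a covariate and 4 to 5 with a library left out. The 10 Mb count of 18 was 5 with Xist as a covariate and 12 to 21 with a library left out. The covariate leaves the contrast mostly to WT 4 as the WT arm, and the share of all genes with it is not given here. Its lower counts therefore say little about stability.

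Some small log2 fold changes turned sign. With Xist as a covariate these were Hs6st1 (-0.0023), Hs6st3 (-0.22) and Tram1l1 (0.00054), and with the low-Xist libraries alone Ndst2 (-0.011), Hs6st1 (-0.0036), Hs6st3 (-0.26), Xylt1 (-0.043) and Tram1l1 (0.012). With a library left out, the ranges, some of one sign, were -0.0064 to 0.068 for Ext1, 0.0030 to 0.060 for Ext2, -0.010 to 0.15 for Ndst1, -0.027 to 0.11 for Ndst2, -0.076 to 0.031 for Hs2st1, -0.073 to 0.27 for Hs6st3, -0.20 to 0.15 for Extl1, -0.038 to 1.09 for Sulf1, -0.43 to -0.047 for Ndst4, 0.023 to 0.062 for Hs6st1, 0.068 to 0.18 for Hs6st2 and -0.37 to 0.018 for Hpse. WT 1 decided the sign of Ext1, Ndst1, Ndst2 and Hs6st3, WT 3 or WT 4 that of Hs2st1, and KO 3 that of Sulf1. Of the values of single genes, 616 kept their direction and side of the threshold, and Prss12 passed in 2 settings. Levels per length changed with the length used for Ext1, Ext2, Ndst1, Ndst3, Ndst4, Hs2st1 and Hs6st2.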
